A study of Mus musculus with 35 samples.

Results

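The genes described here are the 4 that encode subunits of calcium/calmodulin-dependent protein kinase II (CaMKII), Camk2a, Camk2b, Camk2d and Camk2g. They were found by gene symbol among 22961 genes or joined loci shared by the deposited RNA tables of 2 sequencing batches, and all 4 had a locus of their own in both tables. The set was picked because Camk2b gained a promoter peak of trimethylated histone H3 lysine 27 (H3K27me3) and fell in Mettl14 knockout cells. The knockout values of the subunits below are therefore a description, given without p-values.

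The study examined cultured neural progenitor cells (NPCs) from mouse embryos that were homozygous knockout (KO), heterozygous (Het) or wild type (WT) at Mettl14. METTL14 is the RNA-binding partner of METTL3 in the complex that methylates adenosines of messenger RNA to N6-methyladenosine (m6A). In the targeted allele, loxP sites flank exon 2 of Mettl14. The protocols describe a germline knockout made with EIIa-Cre, and a brain knockout made with nestin-Cre, which acts in neural progenitors; the labels do not say which of these gave the cell lines. RNA-seq of batch 1 covered 3 KO lines (67, 73 and 78), 3 Het lines (47, 48 and 50) and 3 WT lines (43, 72 and 75). RNA-seq of batch 3 covered 2 KO lines (530 and 534) and 2 WT lines (532 and 541). Chromatin immunoprecipitation (ChIP) of H3K27me3 and of acetylated H3 lysine 27 (H3K27ac) was done in lines with those same 4 numbers. The m6A immunoprecipitation was done in WT cells only, and each group is a small number of cultured lines rather than of animals.

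CaMKII is activated when calcium-bound calmodulin displaces an autoinhibitory segment from the kinase domain. Its subunits join through their association domains into a ring-shaped holoenzyme, in which neighbouring subunits phosphorylate each other and keep activity after calcium has fallen. The alpha subunit (Camk2a) and the beta subunit (Camk2b) prevail in neurons, where beta binds actin filaments, whereas the delta subunit (Camk2d) and the gamma subunit (Camk2g) are found in most tissues. H3K27ac marks active promoters and enhancers, and H3K27me3 is the mark placed by Polycomb complexes at repressed genes.

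Of the subunit genes, 2 had a promoter in the RefSeq promoter table (build GRCm38.p6), Camk2b at chr11:6065699-6065998 on the minus strand and Camk2d at chr3:126596701-126597000 on the plus strand. They are printed 5′ to 3′ from 250 bases before to 50 bases after the RefSeq start, with CG dinucleotides in capitals. The chromatin results below use a wider window, 1 kb on either side of an annotated start.
Camk2b: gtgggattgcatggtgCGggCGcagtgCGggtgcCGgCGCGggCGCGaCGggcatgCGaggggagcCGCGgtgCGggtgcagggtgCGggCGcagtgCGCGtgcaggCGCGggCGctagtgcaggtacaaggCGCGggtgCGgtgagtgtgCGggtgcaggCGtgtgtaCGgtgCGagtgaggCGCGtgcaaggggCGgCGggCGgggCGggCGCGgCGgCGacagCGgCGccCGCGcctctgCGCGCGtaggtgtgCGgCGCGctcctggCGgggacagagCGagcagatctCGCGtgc
Camk2d: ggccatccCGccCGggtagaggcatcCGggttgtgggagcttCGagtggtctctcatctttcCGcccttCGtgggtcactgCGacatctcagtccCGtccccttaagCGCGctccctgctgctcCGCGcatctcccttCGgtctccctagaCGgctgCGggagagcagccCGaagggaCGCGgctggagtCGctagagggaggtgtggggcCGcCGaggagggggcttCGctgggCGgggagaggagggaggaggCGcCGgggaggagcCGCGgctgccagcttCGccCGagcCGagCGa
The Camk2b window had a GC content of 77.3% and 51 CG dinucleotides. Among all 32851 promoters of this length in the table, 0.715% held at least as many. The Camk2d window had a GC content of 70.3% and 31 CG dinucleotides, a number that 10.6% of promoters reached, and the median promoter had a GC content of 52.7% and 7 CG dinucleotides. The GC-box core GGGCGG, searched on both strands, occurred 3 times in Camk2b, with first bases at -57, -50 and -45 from the start, the last pair sharing a base. It occurred 3 times in Camk2d, at -243, -189 and -18, and 35.7% of all promoters held it. Neither window held TATAAA, the TATA-box core (13.6% of promoters), or TGACGT, the core of the cyclic-AMP response element (7.51%), on either strand.

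The 13 RNA libraries held 14.1 to 19.7 M fragments. The locus count of Mettl14 was 22.4 ± 1.41 CPM (counts scaled to library size; SD, n = 3) in KO, 24.0 ± 0.949 in Het and 23.8 ± 1.11 in WT libraries of batch 1, and 27.8 ± 5.67 in KO against 38.5 ± 1.96 CPM in WT libraries of batch 3 (n = 2 each). This count includes exons outside the deleted part and does not check the deletion. The 8 neural progenitor markers, which include Nes, Vim and Fabp7, were all detected. Over both batches Nes, Vim, Fabp7 and Pax6 were lower in KO than in WT and Sox2 (log2 fold change 1.00, SE 0.08) and Msi1 (1.03, SE 0.15) were higher at an adjusted p below 0.05 in edgeR. The summed level of the 8 was lower in KO libraries, at 3486 to 3904 CPM in KO, 7118 to 8060.1 CPM in Het and 6835 to 7437 CPM in WT libraries of batch 1, and at 4173 to 4508 CPM in KO against 7146 to 7771 CPM in WT libraries of batch 3. The 10 neuronal markers summed to 1015 to 1225 CPM in KO, 1132 to 1286 CPM in Het and 1152 to 1206 CPM in WT libraries of batch 1. In batch 3 they summed to 869 to 1052 CPM in KO and 1086 to 1223 CPM in WT libraries. Map2 made up most of these sums (means of 1079 CPM in KO and 1138 CPM in WT libraries of batch 1) and did not pass. Of the 10 genes, 5 were lower in KO over both batches, among them Nefm (log2 fold change -2.26, SE 0.39) and Syn1 (-1.30, SE 0.31). Only Dcx was higher (1.96, SE 0.52). The 6 astrocyte markers summed to 1624 to 1805 CPM in KO, 1514 to 1753 CPM in Het and 1240.2 to 1494 CPM in WT libraries of batch 1, and to 1104 to 1238 CPM in KO against 832 to 988 CPM in WT libraries of batch 3. Of these 6 genes, 4 were higher in KO, among them Gfap, Aqp4 and the abundant Slc1a3, and Aldh1l1 (log2 fold change -2.11, SE 0.11) and Aldoc (-0.67, SE 0.19) were lower. The 6 oligodendrocyte markers overlapped between genotypes in both batches and summed to 840.5 CPM at most. The 5 fibroblast and pericyte markers summed to 11.1 to 12.4 CPM in KO, 2.03 to 2.78 CPM in Het and 2.32 to 2.66 CPM in WT libraries of batch 1, and to 6.83 to 12.3 CPM in KO against 1.84 to 3.94 CPM in WT libraries of batch 3. Col3a1 (log2 fold change 3.04, SE 0.42), Pdgfrb (3.71, SE 0.60) and Acta2 (1.95, SE 0.40) were higher in KO, and Col1a1 did not pass. Dcn was at 0 in every KO library and in every Het and WT library of batch 1. Muscle, microglial and endothelial markers stayed at or below 12.8 CPM in sum, with Ckm at 0 in every KO library and in every WT library of batch 1. The part of these marker differences in the subunit values was not tested, and in bulk libraries fewer cells of a type cannot be told apart from less RNA per cell.

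Camk2b was the most abundant CaMKII transcript of WT and Het NPCs and was 11.1-fold lower in KO libraries of batch 1 and 3.01-fold lower in KO libraries of batch 3. Levels are given as FPKM, fragments per kilobase of transcript and per M fragments, which were normalised separately in each batch. In batch 1 Camk2b had 12.7, 4.57 and 8.50 FPKM in the KO libraries, 93.6, 90.6 and 80.5 FPKM in the Het libraries and 85.1, 98.8 and 102 FPKM in the WT libraries. Every KO library lay below every Het and WT library, and Het and WT libraries overlapped. In batch 3 it had 34.2 and 35.5 FPKM in the KO libraries, against 120.5 and 89.2 FPKM in the WT libraries, again with no overlap. The share of all genes whose groups did not overlap was not counted, here or for the subunits below. The fragments behind these values were 346 to 981 in KO, 4809 to 6196 in Het and 5134 to 7120 in WT libraries of batch 1, and 1902 and 2375 in KO against 6829 and 5343 in WT libraries of batch 3.

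**Figure D1:**
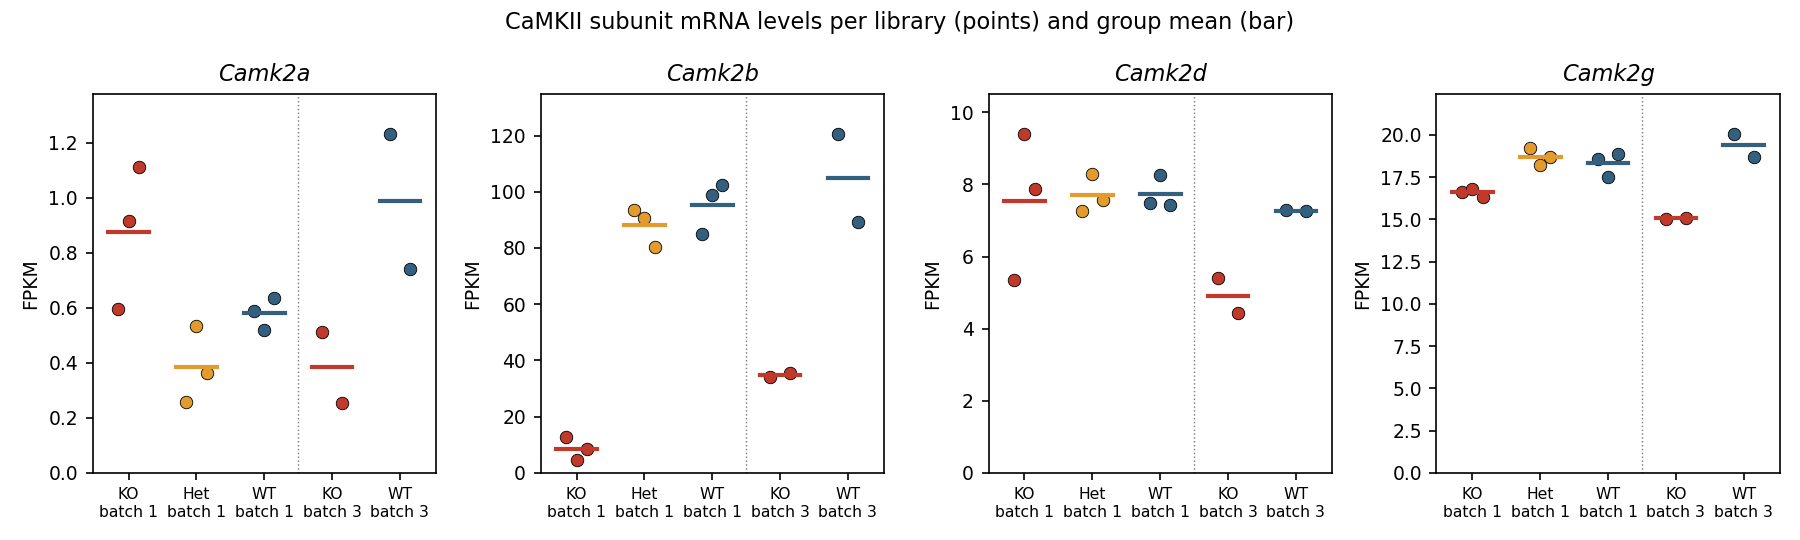
FPKM of each CaMKII subunit gene (vertical axes from 0, 1 panel per gene) in every library, grouped along the horizontal axis by genotype and batch; points are libraries, bars are group means, and the dotted line separates the batches. Camk2b lies at 4.57 to 12.7 FPKM in KO libraries of batch 1 and at 34.2 and 35.5 FPKM in KO libraries of batch 3, below all Het and WT libraries, whereas Camk2g lies between 15.03 and 20.04 FPKM and Camk2a at or below 1.23 FPKM throughout.

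The fitted log2 fold change of Camk2b, KO over WT, was -2.58 (SE 0.31) over both batches, -3.28 (SE 0.31) in batch 1 and -1.58 (SE 0.14) in batch 3. It was -3.10 (SE 0.31) for KO over Het in batch 1, a comparison that shares its KO libraries with KO against WT and in which 68% of genes passed the test described next. At an adjusted p below 0.05 in edgeR's quasi-likelihood test with Benjamini-Hochberg adjustment, 63.3% of all 13726 genes tested passed over both batches, 30.6% in the lower direction. In batch 1 69.3% passed and in batch 3 31.7%; Camk2b was chosen on this contrast, and no call is read from it here. Leaving out any 1 library kept the value over both batches between -2.85 and -2.30.

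Camk2g, whose product can carry calmodulin to the nucleus of neurons, lay between 15.03 and 20.04 FPKM in all 13 libraries. In batch 1 it had 16.6, 16.8 and 16.3 FPKM in the KO libraries, 19.2, 18.2 and 18.7 FPKM in the Het libraries and 18.6, 17.5 and 18.8 FPKM in the WT libraries. In batch 3 it had 15.03 and 15.08 FPKM in the KO libraries, against 20.04 and 18.7 FPKM in the WT libraries. On the FPKM scale the KO libraries lay below the others in both batches. On the CPM scale batch 1 turned round: Camk2g averaged 66.4 ± 2.26 CPM in KO, 61.2 ± 4.14 CPM in Het and 62.3 ± 3.25 CPM in WT libraries (SD, n = 3 each), and the KO and WT ranges overlapped. The fitted log2 fold change, KO over WT, was -0.05 (SE 0.08) over both batches, 0.06 (SE 0.07) in batch 1 and -0.27 (SE 0.14) in batch 3. With limma on log2(FPKM + 0.1) it was -0.23 over both batches, -0.14 in batch 1 and -0.36 in batch 3, so that the sign in batch 1 depends on the scale. The median of all genes on that scale was -0.06 over both batches, -0.09 in batch 1 and -0.02 in batch 3.

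Camk2d, the subunit best known from heart muscle, had 5.35, 9.40 and 7.86 FPKM in the KO libraries of batch 1, 7.27, 8.28 and 7.57 FPKM in the Het libraries and 7.49, 8.26 and 7.44 FPKM in the WT libraries. The KO libraries spread on both sides of the Het and WT libraries. In batch 3 it had 5.39 and 4.43 FPKM in the KO libraries, against 7.30 and 7.26 FPKM in the WT libraries, without overlap. Its fitted log2 fold change, KO over WT, was -0.19 (SE 0.13) over both batches, -0.04 (SE 0.13) in batch 1, where leaving out single libraries gave values from -0.20 without KO library 2 to 0.12 without KO library 1, and -0.48 (SE 0.18) in batch 3. Without single libraries the batch 3 value lay between -0.65 without KO library 1 and -0.31 without KO library 2, and the value over both batches between -0.31 without KO library 2 of batch 1 and -0.10 without KO library 2 of batch 3.

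Camk2a, the main subunit of mature forebrain neurons, was scarce in every group, with 23 to 94 fragments per library. In batch 1 it had 0.594, 0.916 and 1.11 FPKM in the KO libraries, 0.256, 0.533 and 0.364 FPKM in the Het libraries and 0.589, 0.520 and 0.636 FPKM in the WT libraries. All KO libraries lay above all Het libraries and overlapped with the WT libraries. In batch 3 it had 0.513 and 0.253 FPKM in the KO libraries, against 1.23 and 0.742 FPKM in the WT libraries, so that there the KO libraries were the lower ones. Its fitted log2 fold change, KO over WT, was 0.69 (SE 0.28) in batch 1, -1.34 (SE 0.42) in batch 3 and -0.06 (SE 0.38) over both, and leaving out single libraries moved the value over both batches from -0.28 without KO library 3 of batch 1 to 0.26 without KO library 2 of batch 3.

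Het libraries offer a comparison that did not itself serve to choose the genes, and no subunit passed the test in it. The WT libraries in it also served in KO against WT, on which Camk2b was chosen. The log2 fold changes, Het over WT, were -0.18 for Camk2b (SE 0.28, 95% interval -0.83 to 0.46, adjusted p = 0.88), -0.67 for Camk2a (SE 0.31, interval -1.34 to 0.01, adjusted p = 0.583), 0.01 for Camk2d (SE 0.13, interval -0.28 to 0.30, adjusted p = 0.99) and -0.03 for Camk2g (SE 0.07, interval -0.19 to 0.12, adjusted p = 0.913) in edgeR. The intervals are per gene and not adjusted for the number of genes. Of all 13677 genes tested, 2 passed (0.0146%), Gad1 and S100a16, both higher in Het; 1175 had an unadjusted p below 0.05, and DESeq2 called 26. The KO libraries of batch 1, set against the same Het libraries, had log2 fold changes of 1.35 (SE 0.30) for Camk2a, -0.05 (SE 0.13) for Camk2d and 0.09 (SE 0.07) for Camk2g.

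The order of the subunits differed between KO libraries of batch 1 and all other groups. In Het and WT libraries of batch 1, and in KO and WT libraries of batch 3, Camk2b came first, then Camk2g, Camk2d and Camk2a, and in each of these groups no library of one gene overlapped with its neighbour in the order. Camk2b exceeded Camk2g 4.72-fold in Het and 5.21-fold in WT libraries of batch 1, and 2.32-fold in KO and 5.41-fold in WT libraries of batch 3 (ratio of mean FPKM). In KO libraries of batch 1 Camk2g came first, at 16.6 ± 0.223 FPKM (SD, n = 3), 1.93-fold above Camk2b at 8.58 ± 4.05 FPKM. Camk2b and Camk2d, at 7.54 ± 2.04 FPKM, overlapped there and do not differ beyond their spread, and Camk2a was last at 0.874 ± 0.262 FPKM.

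As a share of the summed FPKM of the 4 genes, Camk2b made up 25.2% ± 10.7 in KO, 76.7% ± 1.35 in Het and 78.1% ± 1.69 in WT libraries of batch 1 (SD, n = 3 each), and 63.1% ± 1.59 in KO against 78.9% ± 2.75 in WT libraries of batch 3 (n = 2 each). Camk2g took 49.5% ± 3.06 in KO, 16.3% ± 1.02 in Het and 15.1% ± 1.38 in WT libraries of batch 1, and 27.3% in both KO libraries against 14.8% ± 1.91 in WT libraries of batch 3. Camk2d took 22.7% ± 7.27 in KO, 6.72% ± 0.584 in Het and 6.35% ± 0.52 in WT libraries of batch 1, and 8.90% ± 1.26 in KO against 5.58% ± 0.968 in WT libraries of batch 3. Camk2a stayed at or below 3.29% in every library. The summed level of the 4 genes was 33.6 ± 1.81 FPKM in KO, 115 ± 7.03 FPKM in Het and 122 ± 9.15 FPKM in WT libraries of batch 1, and 55.2 ± 0.13 FPKM in KO against 132 ± 23.5 FPKM in WT libraries of batch 3. Without Camk2b the sum was 25.0 ± 2.27 FPKM in KO, 26.8 ± 0.223 FPKM in Het and 26.6 ± 0.308 FPKM in WT libraries of batch 1, and 20.3 ± 0.83 FPKM in KO against 27.6 ± 1.31 FPKM in WT libraries of batch 3. The KO sum without Camk2b overlapped with the WT sum in batch 1 and lay below it in batch 3.

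**Figure D2:**
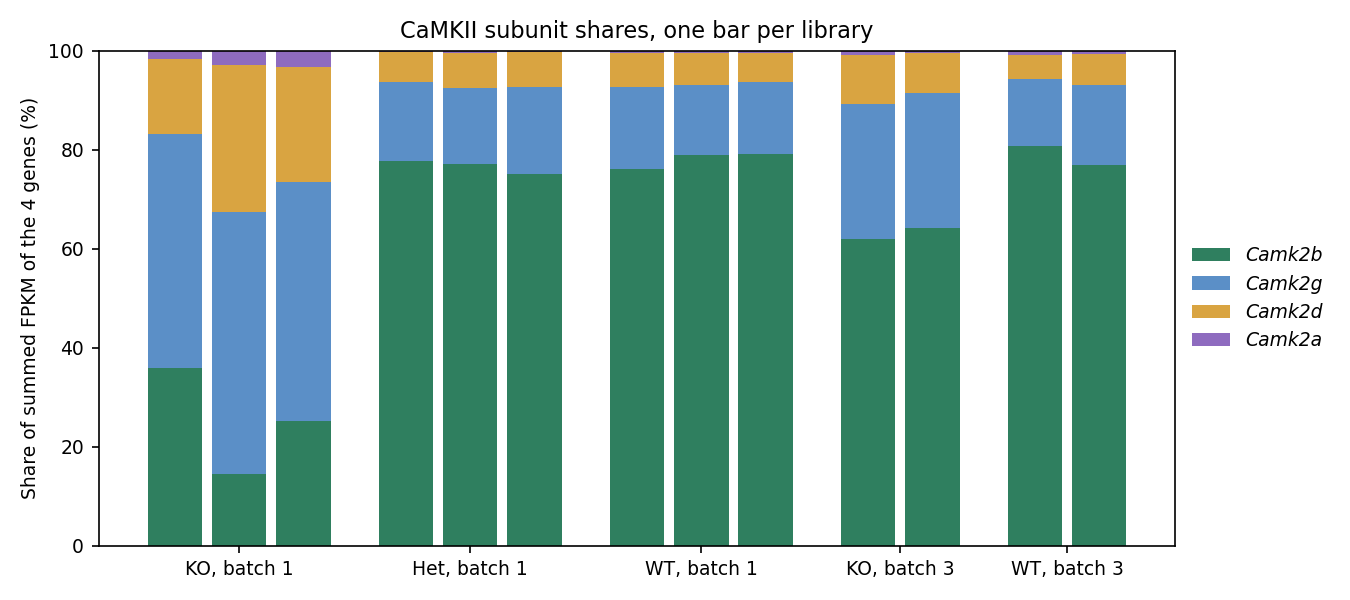
Share of each subunit gene in the summed FPKM of the 4 genes (vertical axis, percent), with 1 stacked bar per library grouped by genotype and batch. Camk2b fills 14.4% to 35.9% of the bar in KO libraries of batch 1 and 62.0% and 64.3% in those of batch 3, against 75.2% to 80.8% in Het and WT libraries.

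The fitted KO values of Camk2b and Camk2a differed between the batches in these libraries, which is a description. In a fit of the 10 KO and WT libraries with a term for the difference, the log2 fold change of Camk2b, KO over WT, was 1.66 higher in batch 3 than in batch 1 (SE 0.38), a smaller fall in batch 3, and leaving out single libraries gave 1.36 to 2.01. For Camk2a it was lower in batch 3 (log2 difference -2.08, SE 0.49; -2.62 to -1.65 when single libraries were left out). The difference was -0.48 (SE 0.24) for Camk2d and -0.37 (SE 0.12) for Camk2g. These values come from the libraries on which the genes were chosen and carry no test. The batches also differ in their lines, and a difference between batches cannot be told apart from one between lines.

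Camk2b occupies chr11:5969666-6065748 on the minus strand (mm10). Both KO lines had an H3K27me3 peak over its annotated start and neither WT line had one, within 1 kb on either side. The peak of KO line 530 ran over chr11:6065636-6067234, 1599 bp, with a fold over input of 3.20 and a -log10 q of 2.15, as the authors' peak lists give them. That of KO line 534 ran over chr11:6064963-6067503, 2541 bp, with a fold of 3.82 and a -log10 q of 3.59. Most of each peak lay upstream of the gene, 1486 bp against 112 bp downstream of the start in line 530 and 1755 bp against 785 bp in line 534, and both cover the whole promoter window printed above. The H3K27me3 lists held 43186 and 59561 peaks in KO lines 530 and 534 and 58863 and 33188 peaks in WT lines 532 and 541. The median fold of all H3K27me3 peaks was 3.20 in line 530 and 3.28 in line 534. With a stricter -log10 q of at least 3, only the peak of line 534 remains. Camk2b was chosen on this gain, which 1.01% of 23895 genes showed; 0.691% showed the reverse, a peak in both WT lines and neither KO line. Among the 241 genes with the gain, 164 were tested for RNA, and 93 of these were called lower and 21 higher in KO, with a median log2 fold change of -0.69, beside 30.6% lower, 32.7% higher and a median of 0.03 over all genes. Camk2b is 1 of these genes. With 2 lines against 2, an exact two-sided permutation test cannot go below p = 0.333.

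H3K27ac covered the Camk2b start in all 4 lines, and its peak was shorter in KO lines. It was 1600 bp long in KO line 530 (fold 5.92) and 3249 bp in KO line 534 (fold 6.53), against 6578 bp in WT line 532 (fold 6.40) and 7064 bp in WT line 541 (fold 9.24). The -log10 q was 12.8 and 13.9 in the KO lines and 20.9 and 26.8 in the WT lines. The KO peaks reached 322 and 932 bp upstream of the start, where the WT peaks reached 3334 and 3283 bp, and 1277 and 2316 bp into the gene, where the WT peaks reached 3243 and 3780 bp. A peak shorter in both KO lines than in both WT lines was found at 34.7% of the 12762 genes with H3K27ac at the promoter in all 4 lines (53.4% of 23895), and a longer one at 9.4%. Across the gene and 2 kb upstream, H3K27ac peaks covered 17.6% and 22.2% of the bases in KO lines 530 and 534, in 11 peaks each, against 31.1% and 31.5% in WT lines 532 and 541, in 18 and 15 peaks. The H3K27ac lists held 55633 and 63189 peaks in KO lines 530 and 534 and 80947 and 55130 peaks in WT lines 532 and 541. They covered 50.5 and 64.8 Mb in KO lines 530 and 534 and 82.7 and 68.7 Mb in WT lines 532 and 541, so that both KO lists covered less of the genome than both WT lists. A further H3K27me3 peak lay within the gene at chr11:6007817-6009224 in KO line 530 alone.

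**Figure D3:**
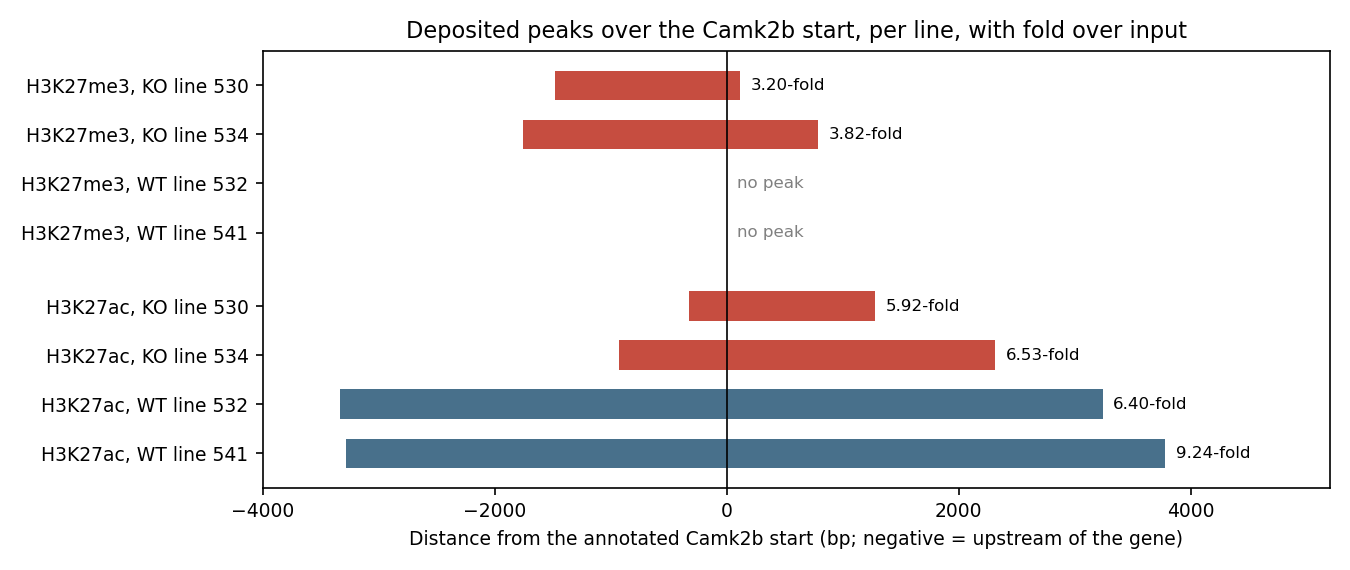
Extent of the deposited H3K27me3 and H3K27ac peaks over the Camk2b start in each line (1 row per mark and line, KO lines in red above WT lines in blue), as distance in bp from the annotated start at 0, with the fold over input printed beside each bar. H3K27me3 bars appear in both KO lines only, and the H3K27ac bars measure 1600 and 3249 bp in KO lines against 6578 and 7064 bp in WT lines.

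The other subunit genes had no H3K27me3 peak within 1 kb of a start in any line. Camk2d (chr3:126596973-126845054, plus strand) had H3K27ac at its start in all lines, over 1919 and 2030 bp in KO lines 530 and 534 (folds 8.57 and 11.7) and over 2336 and 3073 bp in WT lines 532 and 541 (folds 8.08 and 10.3). Its peak too was shorter in both KO lines, while its fold overlapped between genotypes. Over the gene and 2 kb upstream, H3K27ac covered 1.52% and 1.56% of Camk2d in KO lines, in 3 peaks each, against 3.56% and 3.22% in WT lines, in 12 and 9 peaks. KO line 530 had 4 H3K27me3 peaks within introns of Camk2d, together 2035 bp, and the other 3 lines had none.

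Camk2g (chr14:20734873-20794088, minus strand) had H3K27ac over its start across 1580 and 1467 bp in KO lines 530 and 534 (folds 5.59 and 10.0) and 1461 and 1561 bp in WT lines 532 and 541 (folds 5.66 and 5.68). The lengths overlapped between genotypes, and no H3K27me3 peak lay within the gene in any line. Camk2a (chr18:60925632-60988152, plus strand) has a second annotated start at position 60963554, and weak H3K27ac peaks lay within 1 kb of both starts in all lines, with folds of 3.00 to 3.66 for the strongest peak at each. At the first start that peak too was shorter in KO lines, 282 and 278 bp in lines 530 and 534. It was 3340 and 4547 bp long in WT lines 532 and 541. KO line 534 had a further peak of 3288 bp upstream, outside the 1 kb window. At the second start the lengths overlapped, at 1651 and 1559 bp in KO lines and 1866 and 1257 bp in WT lines. H3K27me3 peaks within Camk2a occurred in every line, 1 and 2 in KO lines 530 and 534 and 2 and 3 in WT lines 532 and 541, with folds of 2.87 to 3.86. Around the second start, a window of 2 kb on either side takes in such a peak in 1 KO line and 1 WT line. The depth behind the ChIP and m6A peaks is unknown.

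m6A was mapped in WT NPCs only, in 4 lists that set each of 2 immunoprecipitates against each of 2 inputs and are therefore not 4 replicates. Among peaks in exons, Camk2g had the strongest of the subunits, in its last exon in all 4 lists, within chr14:20736022-20736565, with folds of 4.01 to 4.97 and a -log10 q of 6.21 to 11.8. Its centre lay 508 to 564 bp into a last exon of 1980 bp. A second, weaker peak near the end of that exon appeared in 2 lists, beside the neighbouring gene Ndst2. Camk2b had a last-exon peak in all 4 lists, within chr11:5970422-5970638, centred 1288 to 1299 bp into an exon of 2161 bp, with folds of 2.04 to 2.34, below the median fold of each list (4.02 to 4.22). It also had a peak in an internal exon at chr11:5982528-5982777 in 2 lists with folds of 3.00 and 3.21. Introns of Camk2b held a further 10 peaks in 3 lists, all but 1 between chr11 positions 6007232 and 6010343, with folds of 2.59 to 4.74 and a -log10 q of up to 7.11. The intronic peaks with the highest fold in lists 1 and 2, 4.74 and 4.23, exceeded the Camk2g peaks of those lists, at 4.26 and 4.01. Camk2d had a short last-exon peak in 3 lists, within chr3:126842954-126843044, with folds of 4.20 to 4.56, and in 1 list a peak in another exon (fold 3.72). Camk2a had no peak. An exonic peak in all 4 lists was found for 40.9% of 13456 genes tested for RNA, and one in at least 1 list for 64.7%. With a -log10 q of at least 3, an exonic peak remained for Camk2g in 4 lists, for Camk2b in 1 and for Camk2d in none. Counting introns too, Camk2b kept a peak in 3 lists.

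Across the 13 libraries, with the mean of each batch subtracted, the subunit genes did not share 1 pattern. Pearson's r of log2 CPM was 0.64 between Camk2a and Camk2g, 0.58 between Camk2a and Camk2d and 0.50 between Camk2d and Camk2g. Camk2b stood apart, with r of -0.39 against Camk2a, -0.17 against Camk2g and 0.16 against Camk2d. Camk2b was chosen for its fall in KO, and differences between genotypes were not removed here. Its standing apart is therefore not separate from the choice. The genes most like Camk2b among 12450 were the joined locus of Acat1 and Cul5 (r = 0.996), the nuclear pore gene Nup160 (0.995) and the replication factor C gene Rfc5 (0.995). Those most like Camk2a were Mamdc4 (0.917), E130307A14Rik (0.906) and Chrnb1, a subunit of the muscle acetylcholine receptor (0.904). Those most like Camk2d were Robo1, an axon guidance receptor (0.922), Phf21b (0.908) and Tango2 (0.906), and those most like Camk2g were Pigw (0.965), Usp28, a deubiquitinase (0.89), and 2010015L04Rik (0.88). The libraries fall into KO, Het and WT groups within each batch, and r over them is a description that carries no test.

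Around the kinase, 74 genes in 7 lists were followed, of which 71 were tested over both batches; 20 were higher and 33 lower in KO than in WT (74.6% called, beside 63.3% of all genes, 32.7% higher and 30.6% lower). Their median log2 fold change was -0.20, beside 0.03 over all genes. No gene of these lists passed in Het against WT. In batch 3 alone, where 31.7% of all genes passed, many genes called over both batches and named below did not pass. These were Calm2, Calm3, Camk2n1, Camk2n2, Ppm1e, Gap43, Marcksl1, Dapk2 and Ppp3ca. Grin1, Grin2a, Grin2b, Gria1, Rbfox1, Rbfox2 and Srsf2 did not pass there either. Of the genes followed for calmodulin, the activating calcium sensor, and calmodulin-like proteins, 2 of 3 tested were lower and none higher in KO, with a list median of -0.43. Calm2 averaged 296 ± 42.3 CPM in KO against 595 ± 14.8 CPM in WT libraries of batch 1 (SD, n = 3 each), and 591 ± 113 CPM in KO against 663 ± 37.2 CPM in WT libraries of batch 3 (n = 2 each). Its log2 fold change was -0.67 over both batches (SE 0.15, adjusted p = 0.00134 in edgeR), and Calm3 (-0.43, SE 0.10) was the other gene called lower.

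Among the inhibitors and phosphatases of CaMKII, Camk2n1, an endogenous inhibitor, was higher in KO (log2 fold change 0.79, SE 0.15), whereas its relative Camk2n2 (-0.98, SE 0.29) and the CaMKII phosphatase Ppm1e (-0.28, SE 0.09) were lower; Ppm1f did not pass. Of the 6 proteins that buffer calmodulin, Pcp4l1 averaged 0.161 CPM in KO against 12.3 CPM in WT libraries of batch 1 (log2 fold change over both -5.57, SE 0.29), and Nrgn (-1.75) and Gap43 (-1.09) were also lower. Marcks, which binds calmodulin and membrane lipids, was higher (1.55, SE 0.12), as was Marcksl1 (0.29, SE 0.08), whose call was lost on the FPKM scale. Of 15 other calmodulin-dependent kinases, 6 were higher and 6 lower, with a median of 0.17. They included the kinase-like protein gene Camkv (-3.85, SE 0.23), myosin light chain kinase Mylk (-2.15, SE 0.26), Dapk2 (-1.15, SE 0.24) and Pnck (1.61, SE 0.21).

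Calcineurin, the calmodulin-dependent phosphatase, had 4 of 9 tested genes lower and none higher. Rcan2, a calcineurin regulator, averaged 2.25 CPM in KO against 19.2 CPM in WT libraries of batch 1 (log2 fold change over both -3.68, SE 0.27). The subunit genes Ppp3r2 (-1.98, SE 0.26), Ppp3cb (-0.37, SE 0.08) and Ppp3ca (-0.22, SE 0.08) were also lower. Ppp3r2 was scarce, at 0.457 CPM in KO against 1.57 CPM in WT libraries of batch 1. Ppp3ca passed in 14 of 22 alternatives; its call was lost without KO library 1, 2 or 3 of batch 1 or WT library 2 or 3 of batch 1, with the replicate number as a block, and with limma on FPKM at either pseudocount (adjusted p = 0.0832 at most). Of 23 synaptic partners and substrates, 9 were higher and 9 lower. Arc, an immediate early gene, fell (-2.30, SE 0.33), as did the NMDA receptor subunit gene Grin2a (-1.73, SE 0.30), and the AMPA receptor subunit gene Gria1 rose (1.60, SE 0.34). Neither receptor family moved as a whole. Of the other NMDA receptor genes listed, Grin1 was lower (-1.34, SE 0.24) and Grin2b higher (1.47, SE 0.35). The AMPA receptor gene Gria2 did not pass (-0.12, SE 0.15). Grin2a and Gria1 were scarce in batch 1, at 1.03 CPM in KO against 4.32 CPM in WT libraries and 2.17 against 0.472 CPM, respectively. Neither Grin2a nor Gria1 passed in batch 3 alone. Over the alternatives Grin2a ranged from -1.97 to -0.45 and Gria1 from 0.23 to 1.86. Actn2, an actinin that docks CaMKII at synapses, passed as lower, but averaged only 0.0182 CPM in KO against 0.693 CPM in WT libraries of batch 1, so that its fitted fold depends on the prior count. Of 11 regulators of Camk2 splicing, 2 were higher, Rbfox1 (1.04, SE 0.41) and Rbfox2 (0.26, SE 0.06; adjusted p = 0.102 with limma on FPKM), and 7 lower, among them Mbnl1 (-0.89, SE 0.07), Ptbp1 (-0.78, SE 0.10) and Srsf2 (-0.69, SE 0.14). Rbfox1 passed in 11 of 22 alternatives.

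**Figure D4:**
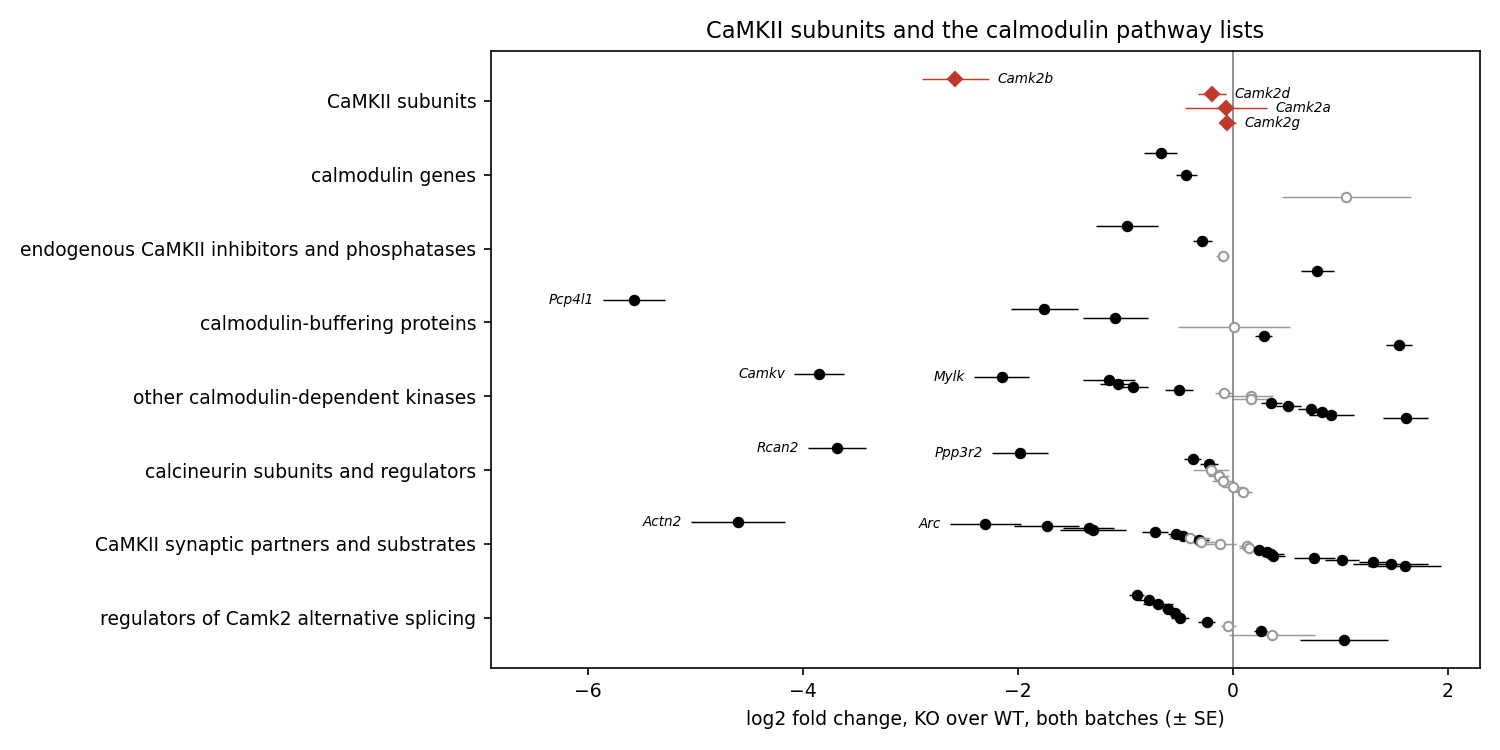
Log2 fold change, KO over WT, fitted over both batches (horizontal axis, with SE as bars), for the CaMKII subunit genes (red diamonds, drawn without a call) and the genes of 7 calmodulin pathway lists (1 row each; filled black circles have an adjusted p below 0.05 in edgeR, open grey circles do not). Camk2b lies at -2.58, apart from the other subunits between -0.19 and -0.05, and the lists hold genes on both sides of 0.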

How the data were processed

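Per the file headers, the deposited RNA tables give raw fragments for every locus in each library; these are estimated counts (5.31% of values in batch 1 and 2.31% in batch 3 were not whole within 1e-09), and FPKM as the authors scaled them within each batch. Per the submitters' processing notes, TopHat2 2.1.0, Bowtie2 2.3.1, Cufflinks, Cuffdiff and MACS2 were used with build mm10; roles are not given there, and strand settings are not given in the sources used here. The deposited peak lists give, per line against its own input, a fold over input and a −log10 q, and the same lists' p-values and scores were not used. The batch 2 table is identical to that of batch 1, so the 6 libraries of batch 2 were not analysed here.

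Estimated counts were rounded, summed per gene symbol and fitted over all genes with edgeR 4.0.16 (R 4.3.3; TMM factors 0.968 to 1.04, default low-count filter, robust quasi-likelihood F test with legacy settings, two-sided, Benjamini-Hochberg) with batch as a covariate, in each batch, and for the difference between batches. The computation was tested on simulated data. Loci with no gene name, 0.352% to 2.16% of fragments, were left out. limma 3.58.1 on log2(FPKM + 0.1) and DESeq2 1.42.0 were alternatives, and edgeR's newer bias-adjusted test was added after seeing the data. CPM use the TMM factors.

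A promoter was 1 kb either side of an annotated start, and 1 bp of overlap counted. In each list, named genes are the called genes with the largest change, up to 4, and all genes of counts of 5 or fewer. Grin1, Grin2b and Gria2 are named in addition, outside this rule. The members and lists were chosen with earlier results of these data known. The table's library numbers are not tied to line numbers and are names only. The labels call the lines biological replicates. 1 gene of the pathway lists is not reported here.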

Additional observations from a re-analysis of the deposited data

Results flagged for a closer look

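The KO effect differed in size between batches for 7 of 27 pathway genes that were named by the stated rule and tested. The edgeR test of that difference was used, at an adjusted p below 0.05. Values are log2 fold changes, KO over WT, from that fit. Of all 13589 genes tested 14.4% passed; the named genes were picked for a large KO change, so that their share is not read against it. The calmodulin gene Calm2 fell less in batch 3, with a difference of 0.84 (SE 0.19). The same sign was seen for the inhibitor gene Camk2n2 (1.52, SE 0.39), the calmodulin-binding growth cone gene Gap43 (1.81, SE 0.30), the catalytic calcineurin gene Ppp3ca (0.42, SE 0.13) and the splicing factor gene Srsf2 (0.76, SE 0.20). The opposite sign was seen for Rcan2 (-1.61, SE 0.38) and Ppp3cb (-0.50, SE 0.10), whose falls were larger in batch 3. Gap43 had -1.85 in batch 1 and -0.03 in batch 3. The 4 KO and WT libraries of batch 3 come from other lines than those of batch 1, and the part of batch and that of line cannot be told apart.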

How the results depend on the processing

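Of 1216 pairs of a result and an alternative over 96 results, 1135 were labelled unchanged. Counts had to stay within a factor of 1.5. Subunit shares and fitted values of the subunits, KO against WT or Het, had to move by less than the spread of the libraries. For these the side of the threshold was not counted. Other fitted values had to keep their direction and side of the threshold. Camk2b stayed lower in KO in all 22 alternatives over both batches (-2.85 to -2.30), 14 in batch 1 (-3.64 to -2.98) and 9 in batch 3 (-1.69 to -1.46). The near-zero Het values of 2 subunits changed sign. Camk2d (0.01) became -0.0042 with limma on FPKM, and -0.02 to 0.03 when single libraries were left out, with -0.0023 without WT library 3. Camk2g (-0.03) became 0.03 with limma on FPKM and -0.09 to 0.0013 when single libraries were left out. Calls in Het against WT (2) became 26 with DESeq2 and 0 to 17 when single libraries were left out. Calls for the difference between batches (1953) then ranged from 484 without WT library 1 of batch 3 to 4282 without KO library 1 of batch 3, and calls in batch 3 (4075) from 2082 without WT library 2 to 5645 without KO library 1. Pathway genes called higher (20) became 13 with limma at either pseudocount. At a -log10 q of at least 3, 1 KO line kept the Camk2b H3K27me3 peak and 1 KO line kept Camk2a H3K27ac (2 each otherwise), and a 2 kb window gave Camk2a H3K27me3 in 1 KO and 1 WT line (0 otherwise). On the FPKM scale the median log2 change of all genes was -0.12 for KO against Het (0.01 on counts) and 0.11 for the difference between batches (0.00 on counts). There the share of calls that were higher became 39.2% (49.7% on counts) and 72.4% (54.8% on counts). The cause of these changes was not tested. The table's library numbers did not pair KO with WT libraries (correlations of deviations 0.12, -0.12 and -0.19 in batch 1 and -0.11 in batch 3). Het libraries were not checked in this way, and 2 libraries per group give only 1 value in batch 3. With the replicate number as a block, 8309 genes were called over both batches in place of 8689. The calls of Ppp3ca (adjusted p = 0.0614 in edgeR) and Rbfox1 (0.0633) were then lost. The low counts of Camk2a limit its precision.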

Other observations

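The batch 1 assembly holds an unnamed locus just upstream of the annotated Camk2b start, at chr11:6065946-6066237 (mm10), within the H3K27me3 peaks of both KO lines. It has no strand and lies inside the assembled Camk2b locus of that batch, chr11:5967989-6066283. Whether its fragments belong to Camk2b was not tested. The unnamed locus had 1, 1 and 0 fragments in the KO libraries, 7, 0 and 4 in the Het libraries and 3, 8 and 13 in the WT libraries of batch 1. Each WT library was above each KO library, and these numbers are too small for a test. Counting errors cover sampling only, since reads of PCR copies are not independent molecules.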
